A study of Mus musculus with 12 samples.

Results

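The transcripts described here are 38 marker genes of blood cells other than T cells, looked up by symbol among the 53762 symbols of a raw count table made from mouse spleen T cells. All 38 were found. They comprise 9 B cell, 8 neutrophil, 11 monocyte and macrophage, 7 dendritic cell, 2 red cell and 1 mast cell marker, and they were selected by name as known markers, although earlier results of these data were known when the list was drawn up. The T cells had been co-cultured with partner cells named Res in the labels, carrying either a control construct (Res_ctrl) or shFabp7, a short hairpin RNA against the fatty acid binding protein gene Fabp7 (Res_shFabp7). Each co-culture was sampled at 24 h and at 48 h, with 3 libraries in each of the 4 groups (12 libraries). The sources used here do not state the strain, sex or age of the mice, what the Res cells are, or how T cells were isolated from spleen and separated from the partner. The stated question of the series was which genes differ in T cells between the control and the shFabp7 partner.

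B cells, neutrophils, monocytes, macrophages, dendritic cells, red cell precursors and mast cells share the spleen with T cells. B cells recognise antigen through a surface immunoglobulin coupled to the CD79 signalling pair, whereas neutrophils are short-lived phagocytes filled with antimicrobial granule proteins. Macrophages and dendritic cells engulf material, and dendritic cells present it to T cells. A marker is rarely strict: the integrin genes Itgax and Itgam can be transcribed by activated T cells, and the adaptor genes Tyrobp and Fcer1g by natural killer (NK) cells. In bulk RNA, fewer cells of a type and less RNA per cell cannot be told apart.

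The libraries held 32.0 to 40.6 M counts, and levels are given as CPM, the counts of a gene scaled by library size and TMM factor. An upper limit of 3 counts, used here where a gene had no count, corresponded to 0.0713 to 0.101 CPM and covers counting error only. No 2 libraries of a group matched within sampling noise (chi-square 4.1 to 13 per degree of freedom), and all 12 were used. The labels do not say whether the replicates were separate cultures or mice. The p-values therefore measure only the spread among these samples, and that spread may be technical. Of the 38 markers, 27 passed the filter on low counts and were tested with edgeR's quasi-likelihood test, adjusted by Benjamini-Hochberg over 16945 genes at a threshold of 0.05. The other 11 are described by their counts alone. A marker seen mainly in 1 group can pass this filter through that group, so counts among the 27 do not speak for all 38.

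The promoters of 4 neutrophil granule and alarmin genes are shown because these were the neutrophil markers that differed between partners at 48 h. S100a8 and S100a9 encode the subunits of calprotectin, Lcn2 the iron-siderophore binding protein lipocalin 2, and Ngp a secondary granule protein. Each sequence is the 250 bases before the RefSeq gene start in build GRCm38.p6, written 5′ to 3′ on the gene's strand. The positions are chr3:90668821-90669070 on the plus strand for S100a8, chr3:90695722-90695971 on the minus strand for S100a9, chr2:32387740-32387989 on the minus strand for Lcn2 and chr9:110419558-110419807 on the plus strand for Ngp. Capitals mark matches on either strand to TTGCNNAA, a form of the site of the C/EBP factors that drive granule genes, or to AGGAAGT, a form of the site of the myeloid factor PU.1.
S100a8: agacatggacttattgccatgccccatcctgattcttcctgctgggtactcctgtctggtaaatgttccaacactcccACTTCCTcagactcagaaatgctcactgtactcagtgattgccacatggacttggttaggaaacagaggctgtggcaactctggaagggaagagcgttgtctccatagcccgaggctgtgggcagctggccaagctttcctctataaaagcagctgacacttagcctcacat
S100a9: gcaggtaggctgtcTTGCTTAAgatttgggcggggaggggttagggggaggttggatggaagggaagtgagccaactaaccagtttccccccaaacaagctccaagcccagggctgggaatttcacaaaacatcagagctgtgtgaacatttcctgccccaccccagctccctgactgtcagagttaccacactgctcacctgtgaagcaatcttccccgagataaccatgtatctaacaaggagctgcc
Lcn2: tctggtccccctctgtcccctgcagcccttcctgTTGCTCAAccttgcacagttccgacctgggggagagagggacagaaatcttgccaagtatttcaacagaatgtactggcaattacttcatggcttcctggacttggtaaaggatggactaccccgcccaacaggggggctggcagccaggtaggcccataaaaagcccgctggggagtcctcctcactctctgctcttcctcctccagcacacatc
Ngp: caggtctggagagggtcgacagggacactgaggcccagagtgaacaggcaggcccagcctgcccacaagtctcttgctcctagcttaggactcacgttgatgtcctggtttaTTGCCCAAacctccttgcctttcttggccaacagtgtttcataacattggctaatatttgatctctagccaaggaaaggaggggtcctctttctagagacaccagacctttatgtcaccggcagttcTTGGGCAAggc
The TTGCNNAA match occurred in the promoters of S100a9, Lcn2 and Ngp but not in that of S100a8, which held the AGGAAGT match. Of the 8 neutrophil markers, all with a window, 5 held TTGCNNAA (Lcn2, Ltf, Ngp, Retnlg and S100a9) and 1 held AGGAAGT. Over all 32841 mouse promoter windows of this length, 9.57% held TTGCNNAA and 7.69% AGGAAGT. Of the 5 monocyte and macrophage markers with a window, 3 held AGGAAGT (C1qb, Chil3 and Lyz2) and none held TTGCNNAA. The motif CCCNNGGG, a form of the site of the B cell factor EBF, was found in 11.8% of windows and in 1 of 6 B cell windows, that of Cd22. These matches describe letters only, no binding was measured, and 9 of the 38 markers had no window in the table.

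The 38 markers together made up a very small part of the transcriptome. At 24 h their summed level was 53 ± 1.45 CPM beside control and 44.7 ± 3.73 CPM beside shFabp7 partner cells (SD, n = 3). At 48 h it was 78.7 ± 6.61 and 63.4 ± 3.13 CPM. As a share of counts the sums were 0.00508%, 0.00416%, 0.00859% and 0.00653% in that order. The 18 T cell markers used for comparison summed to 6413 ± 113, 6482 ± 151, 5119 ± 54 and 5369 ± 71.6 CPM. The defining T cell genes were abundant in every group. Cd3e, the epsilon chain of the T cell receptor complex, was at 408, 411, 264 and 266 CPM, and Trac, the receptor alpha constant region, at 402, 392, 264 and 248 CPM. Cd4 was at 459, 428, 562 and 561 CPM and Cd8a at 353, 336, 161 and 138 CPM, so transcripts of both T cell lineages were present.

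Levels were compared between genes per kilobase of exon. The highest group mean of any of the 38 non-T markers was 8.2 CPM per kb, for Cd79b at 48 h with the control partner. The lowest of any of the 18 T cell markers in any group was 33 CPM per kb, for Cd3g at 24 h with the shFabp7 partner, and the highest was 485, for Trbc2 at 24 h with the control partner. At 24 h with the control partner the highest of the 38 per kb were Cd79b (3.4), Gata1 (2.76), Lyz2 (2.68) and S100a9 (2.37). At 48 h with the same partner they were Cd79b, S100a9 (4.56), Tyrobp (2.89) and Gata1 (2.84). None of the 38 overlapped the range of T cell markers in any group. Some genes of the other marker lists described below did lie within that range. At 24 h with the control partner, Irf4 of the plasma cell list was at 229 CPM per kb. Irf8 and Ccr7 of the further dendritic cell list were at 69.3 and 381.

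**Figure D1:**
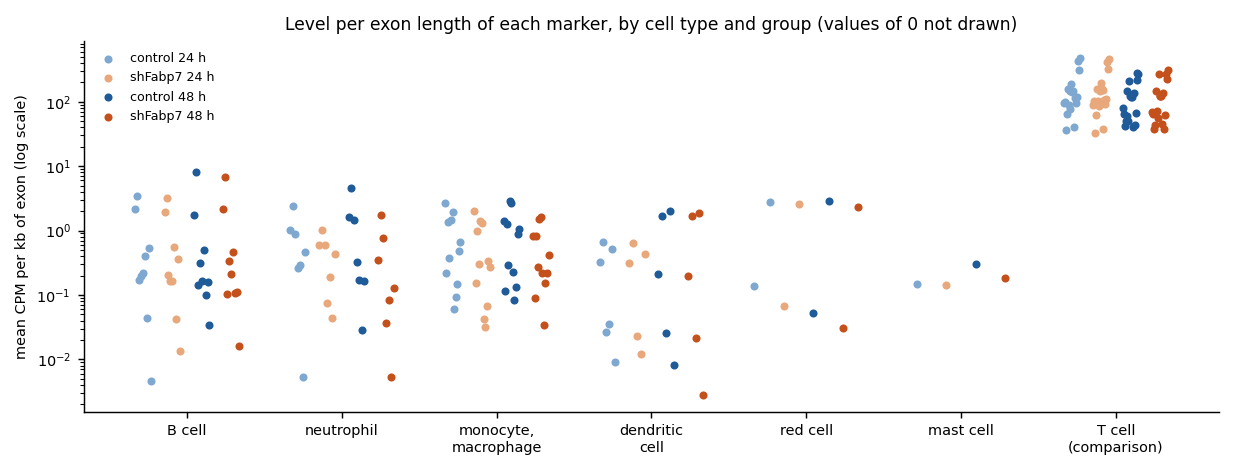
Mean CPM per kilobase of exon on a log axis for each marker, by cell type, with 1 point per gene and group in 4 colours and values of 0 left out. The non-T markers drawn, all from the 38, lie at or below 8.2 and the 18 T cell markers at or above 33.

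The least abundant markers included several that define their cell type. Retnlg, a neutrophil resistin-like protein, and Cd209a, a lectin of monocyte-derived dendritic cells, had 0 counts in all 12 libraries, which allows at most 0.0713 to 0.101 CPM in a library. The neutrophil granule genes Camp and Ltf had 59 and 30 counts over the 12 libraries, and 15 of the 30 Ltf counts came from shFabp7 replicate 3 at 24 h. The complement genes C1qa and C1qb, made by tissue macrophages, had 27 and 59 counts. Among dendritic cell genes, Xcr1 and Clec9a of the cross-presenting type had 46 and 7 counts, and Siglech of the plasmacytoid type had 16. All 16 Siglech counts were at 24 h. Cr2, the complement receptor of follicular and marginal zone B cells, had 61 counts. Hba-a1, a globin gene nearly identical to Hba-a2 so that its reads are uncertain, had 25.

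By cell type, the myeloid sums at 48 h were lower with the shFabp7 partner, and the B cell and dendritic cell sums were higher at 48 h than at 24 h. The neutrophil markers at 24 h summed to 4.55, 8.06 and 6.88 CPM with the control partner, against 5.09, 3.42 and 4.84 CPM with shFabp7. At 48 h the sums were 10.1, 6.05 and 9.77 CPM against 2.35, 3.65 and 5.18 CPM. The neutrophil sums of the partner groups therefore overlapped at 24 h and did not at 48 h. The monocyte and macrophage markers summed to 14.8, 14.5 and 12.3 against 10.3, 9.25 and 9.8 CPM at 24 h, and to 16.8, 13.5 and 14.8 against 8.29, 8.2 and 10.3 CPM at 48 h. These did not overlap at either time. The B cell sum was 15.1 ± 0.501 and 14 ± 2.21 CPM at 24 h with the control and shFabp7 partner, and 21.8 ± 1.86 and 20.1 ± 1.13 CPM at 48 h. The dendritic cell sum was 10.3 ± 0.871 and 9.71 ± 0.513 CPM at 24 h, and 25.4 ± 2.13 and 24.5 ± 0.756 CPM at 48 h. For both, partner groups overlapped at 24 h and at 48 h. These sums were not tested, and single genes carried much of some: Cd79b made up 53.7% of the B cell sum at 48 h with the control partner, and Zbtb46 55.9% of the dendritic cell sum.

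**Figure D2:**
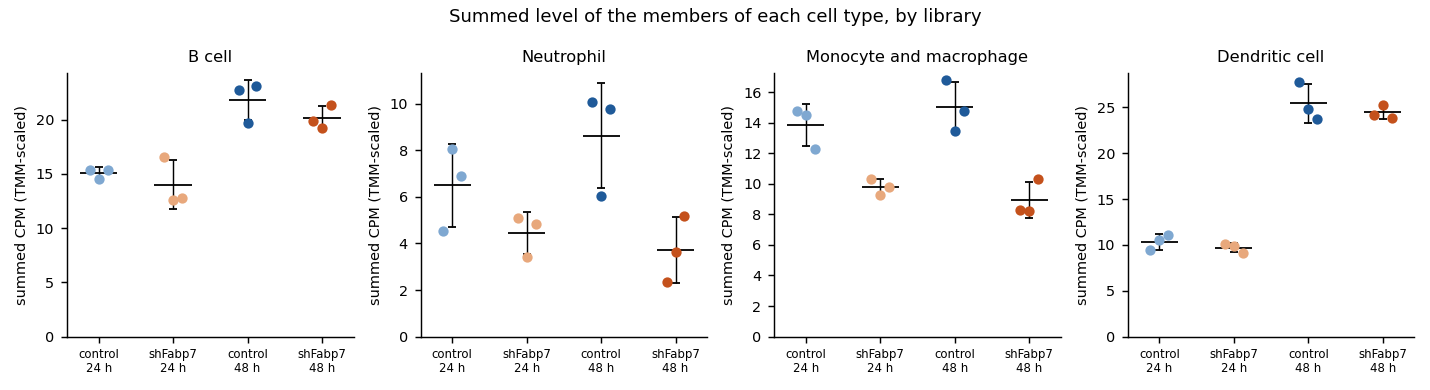
Summed CPM of the markers of each cell type, with 1 point per library, a bar at the group mean and whiskers of 1 SD (n = 3). At 48 h the neutrophil and the monocyte and macrophage sums with the shFabp7 partner (up to 5.18 and 10.3 CPM) lie below all control libraries (from 6.05 and 13.5 CPM), while the B cell and dendritic cell sums overlap.

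At 24 h, 2 markers differed between the partners, both lower with shFabp7: the arginase gene Arg1 and S100a9. None was higher. This count of 2 among the 27 tested compares with 10.9% of all genes tested called in either direction, 4.65% lower and 6.22% higher. The median log2 fold change of the 27 was -0.30, against -0.00 over all genes tested. DESeq2 called 0 at 24 h and gave an adjusted p to only 5 of the 27. At an unadjusted p under 0.05 there were 6 lower and 0 higher with edgeR, and 2 lower and 0 higher with DESeq2.

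Arg1, which breaks down arginine and marks alternatively activated macrophages, was at 1.63, 1.33 and 1.54 CPM with the control partner at 24 h, against 0.769, 0.57 and 0.481 CPM with shFabp7. The groups did not overlap, and Arg1 fell by 1.30 ± 0.30 on the log2 scale (SE, adjusted p = 0.0051, edgeR). S100a9 was at 1.11, 1.52 and 1.08 CPM against 0.449, 0.369 and 0.781 CPM. It also did not overlap and fell by 1.20 ± 0.38 (adjusted p = 0.041), but its call was lost on leaving out any 24 h library other than shFabp7 replicate 3 (adjusted p up to 0.163). Its partner S100a8 was at 0.461, 0.953 and 0.711 CPM against 0.481, 0.469 and 0.27 CPM, which overlapped, and it did not pass the threshold. Lcn2 was at 1.69, 2.78 and 2.48 CPM against 2.11, 1.41 and 1.14 CPM and overlapped as well.

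Fcer2a, the low-affinity IgE receptor of mature B cells, did not overlap at 24 h (1.57, 1.74 and 1.68 against 1.15, 1.24 and 0.992 CPM) and did not pass the threshold. In all, 7 of the 27 markers were lower without overlap and 1 was higher, where 12.5% and 15% of all genes tested were. None of the 8 tested B cell markers and none of the 3 tested dendritic cell markers passed with edgeR. DESeq2 called none either, but it gave an adjusted p to only 2 of the 8 and 2 of the 3, so the rest could not pass. At an unadjusted p under 0.05 edgeR had 1 of these 11, Fcer2a, and DESeq2 0. Among tested genes outside the 38, 2 of 18 B cell genes fell and 0 rose at 24 h. Of 16 dendritic cell genes, 4 fell and 2 rose, where 4.65% of all genes tested fell and 6.22% rose.

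At 48 h, 10 of the 27 tested markers fell with the shFabp7 partner and none rose, where 31.6% of all genes tested changed, 11.6% falling and 19.9% rising. They were 4 of 5 neutrophil markers (S100a8, S100a9, Lcn2 and Ngp), 5 of 9 monocyte and macrophage markers (Lyz2, Tyrobp, Fcer1g, Chil3 and Arg1) and Gata1. No tested marker of B cells (8) or dendritic cells (3) passed with edgeR or DESeq2, and at an unadjusted p under 0.05 each had 1, Cd79b, which was lower. The median log2 fold change of the 27 was -0.39, against 0.01 over all genes tested, and 11 were lower without overlap and 0 higher, where 18.4% and 25.7% of all genes tested were. DESeq2 called 8 lower and 0 higher, and at an unadjusted p under 0.05 neither tool had a marker higher. Leaving out shFabp7 replicate 1 reduced the calls to 5.

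S100a8 showed the clearest partner difference among the calprotectin genes. Its control libraries at 48 h were at 1.47, 0.72 and 1.23 CPM and its shFabp7 libraries at 0.19, 0.255 and 0.277 CPM. No shFabp7 library reached the lowest control library, and S100a8 fell by 2.24 ± 0.40 on the log2 scale (adjusted p = 3.9e-05). S100a9 was at 3.22, 1.29 and 2.64 CPM against 0.475, 1.02 and 1.22 CPM. Its highest shFabp7 library came close to the lowest control library, and it fell by 1.41 ± 0.32 (adjusted p = 0.00119). Their promoters are among those printed here.

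The other 2 neutrophil calls were in Lcn2 and Ngp. Lcn2 was at 4.47, 2.91 and 4.31 CPM against 1.35, 1.95 and 2.66 CPM and fell by 0.98 ± 0.24 (adjusted p = 0.00179). The groups were close but did not overlap. Ngp rested on few reads, with 5, 22 and 20 counts in the control libraries and 1, 2 and 2 in the shFabp7 libraries. Its log2 fold change was -3.10 ± 0.95 (adjusted p = 0.0141), and the call was lost without control replicate 2 (adjusted p = 0.0576) and without replicate 1 of shFabp7 (adjusted p = 0.0705). Csf3r, the receptor for the growth factor G-CSF, was at 0.518, 0.463 and 0.781 CPM against 0.285, 0.283 and 0.832 CPM, which overlapped, and did not pass.

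At 48 h several neutrophil markers were lowest or highest in the same library of a group, which was not tested. Of the 6 with at least 50 counts in all, 5 were lowest in control replicate 2 among the control libraries at 48 h, and 5 were lowest in shFabp7 replicate 1 among the shFabp7 libraries. In shFabp7 replicate 3, 5 of the 6 were highest. Among the 10 monocyte and macrophage markers with that many counts, 5 were lowest in control replicate 2 and 6 were highest in shFabp7 replicate 3, but 5 were lowest in shFabp7 replicate 2 and only 3 in replicate 1. At 24 h, 5 of the 6 neutrophil markers were highest in control replicate 2 and 4 were lowest in control replicate 1. Their lowest values among the shFabp7 libraries at 24 h were spread evenly, 2 in each. A shared order was not particular to myeloid markers. Of the 9 B cell markers, 5 were lowest in control replicate 2 at 48 h and 8 were highest in shFabp7 replicate 1 at 24 h. The order over all genes was not examined.

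Of the macrophage genes, Arg1 had the smallest adjusted p at 48 h. It was at 2.1, 2.88 and 1.96 CPM in the control libraries and 1.33, 0.905 and 0.527 CPM in the shFabp7 libraries, and fell by 1.31 ± 0.26 on the log2 scale (adjusted p = 2.1e-04). All shFabp7 libraries were below all control libraries, as at 24 h. Chil3, a chitinase-like protein of alternatively activated macrophages whose reads may be shared with its close relative Chil4, was at 1.58, 0.798 and 1.99 CPM against 0.0713, 0.368 and 0.638 CPM. It fell by 2.05 ± 0.66 (adjusted p = 0.0314), a call lost without control replicate 1 or 3 or shFabp7 replicate 1 or 2 (adjusted p up to 0.109). The spread between libraries of 1 group was wide for this gene, with 3 counts in the lowest shFabp7 library and 23 in the highest.

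Tyrobp, the adaptor DAP12 that passes on signals from activating receptors of myeloid and NK cells, was at 1.74, 1.83 and 2.22 CPM against 0.95, 0.735 and 1.3 CPM. Its groups were well apart, and it fell by 0.95 ± 0.27 on the log2 scale (adjusted p = 0.00578). Fcer1g, the common Fc receptor gamma chain, was at 3.08, 1.85 and 1.99 CPM against 1.33, 1.41 and 1.5 CPM. It fell by 0.70 ± 0.23 (adjusted p = 0.0166), and the call was lost on leaving out replicate 1 of the control (adjusted p = 0.18) or of shFabp7 (adjusted p = 0.0615). Lyz2, lysozyme of phagocytes, was at 2.26, 1.65 and 1.64 CPM against 0.879, 0.792 and 1.61 CPM, so the groups only just separated. It fell by 0.76 ± 0.25 (adjusted p = 0.0173) and was no longer called without replicate 1 of either group or replicate 2 of shFabp7 (adjusted p up to 0.111).

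The macrophage genes Cd14, a lipopolysaccharide co-receptor, and Adgre1, the F4/80 antigen, overlapped between partners at 48 h and did not pass. Cd14 was at 3.11, 1.08 and 2.32 CPM against 1.33, 1.05 and 1.94 CPM. Adgre1 was at 0.942 ± 0.264 against 0.89 ± 0.278 CPM. Csf1r, the receptor for the macrophage growth factor, was at 0.763, 0.617 and 0.655 CPM against 0.618, 0.368 and 0.554 CPM. Its exons overlap those of Hmgxb3 on the opposite strand, which had 38254 counts against 357, and the sources used here do not state whether counting used strand. Itgam, the CD11b integrin chain, was at 1.16 ± 0.565 against 1.1 ± 0.178 CPM.

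**Figure D3:**
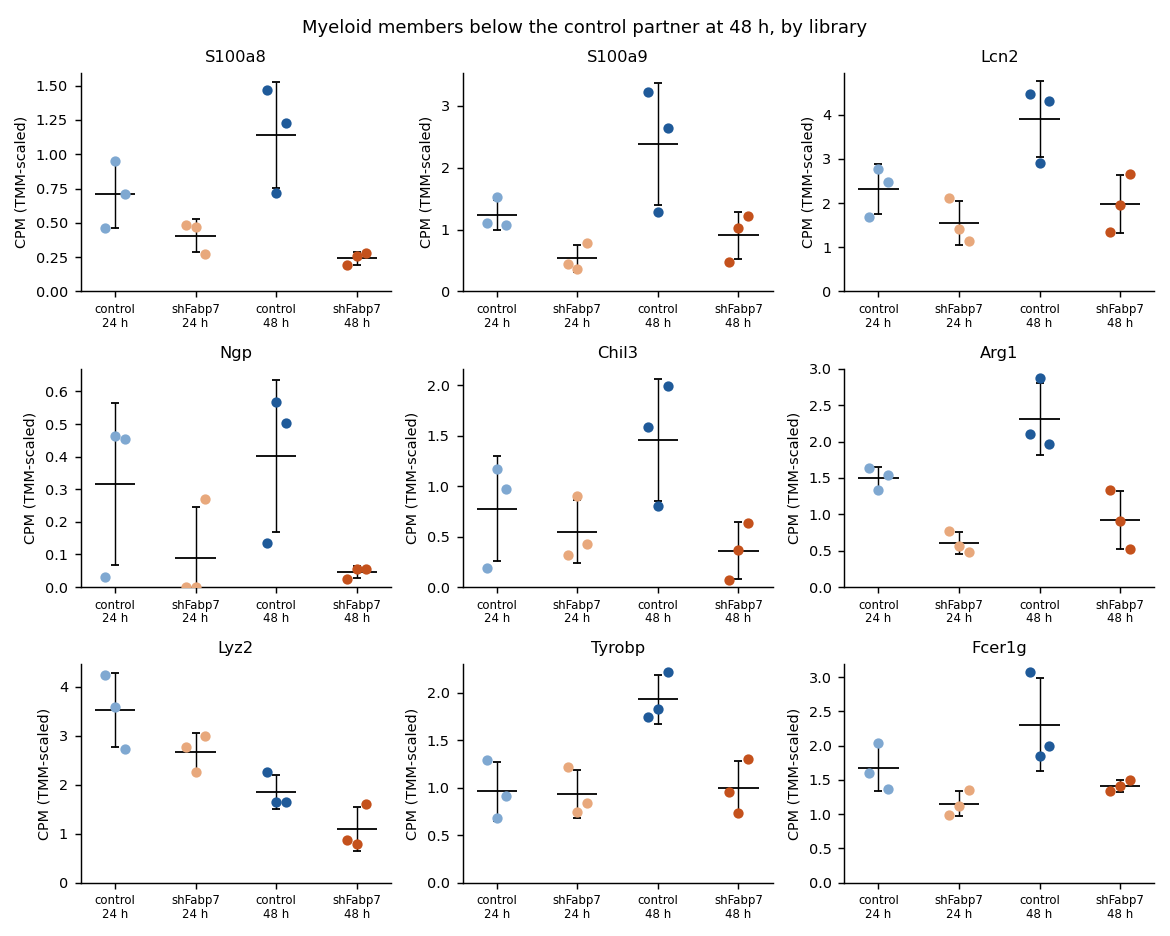
CPM of 9 neutrophil and macrophage markers called lower with the shFabp7 partner at 48 h, with 1 point per library, a bar at the group mean and whiskers of 1 SD (n = 3). S100a8 stays at or below 0.277 CPM in the shFabp7 libraries at 48 h and at or above 0.72 CPM in the control libraries, and Lyz2 differs from the others in being highest at 24 h.

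Gata1, a transcription factor of red cell, platelet and mast cell precursors, was at 6.49, 6.95 and 7.3 CPM in the control libraries at 48 h, against 5.18, 6.14 and 5.65 CPM with shFabp7. The difference of -0.29 ± 0.11 on the log2 scale lay at the threshold (adjusted p = 0.0499). It was lost with DESeq2, RLE scaling, no filter on low counts and the replicate number as a block. Leaving out replicate 2 or 3 of the control, or 1 or 3 of shFabp7, also ended it (adjusted p up to 0.204). The other red cell marker, Hba-a1, had 5 counts in the control and 3 in the shFabp7 libraries at 48 h. Ms4a2, the beta chain of the mast cell IgE receptor, was at 0.79, 0.669 and 1.06 CPM against 0.451, 0.792 and 0.277 CPM and did not pass.

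The B cell markers gave no partner call at 48 h. Cd79b, the beta chain of the B cell receptor signalling pair, was at 11.3, 10.8 and 13 CPM against 10.1, 8.06 and 10.7 CPM, and its log2 fold change of -0.29 did not pass, although it did with the replicate number as a block (edgeR, adjusted p = 0.0342). Cd79a, the alpha chain, was at 2.55 ± 0.344 against 3.1 ± 0.335 CPM. Ms4a1, the CD20 gene, Pax5 and Ebf1, which set B cell identity, Cd22, an inhibitory lectin, and Blk, a B cell kinase, all overlapped between partners. Cd22 was at 0.832 ± 0.3 against 1.07 ± 0.0687 CPM and Blk at 1.32 ± 0.187 against 1.24 ± 0.121 CPM. Zbtb46, a transcription factor of conventional dendritic cells, was at 14.9, 13.9 and 13.8 CPM against 13.2, 14.9 and 14.7 CPM.

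Whether the partner difference itself changed from 24 to 48 h was tested as an interaction. No marker passed, where 5.6% of all genes tested did (4.43% above 0 and 1.17% below), and DESeq2 also called 0, with no adjusted p for 18 of the 27. At an unadjusted p under 0.05, 2 markers were below 0 with each tool and 0 were above. S100a8 had an interaction of -1.43 ± 0.57 (adjusted p = 0.151) and Tyrobp of -0.92 ± 0.40 (adjusted p = 0.195). The larger number of calls at 48 h therefore does not show a larger difference for any single marker.

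**Figure D4:**
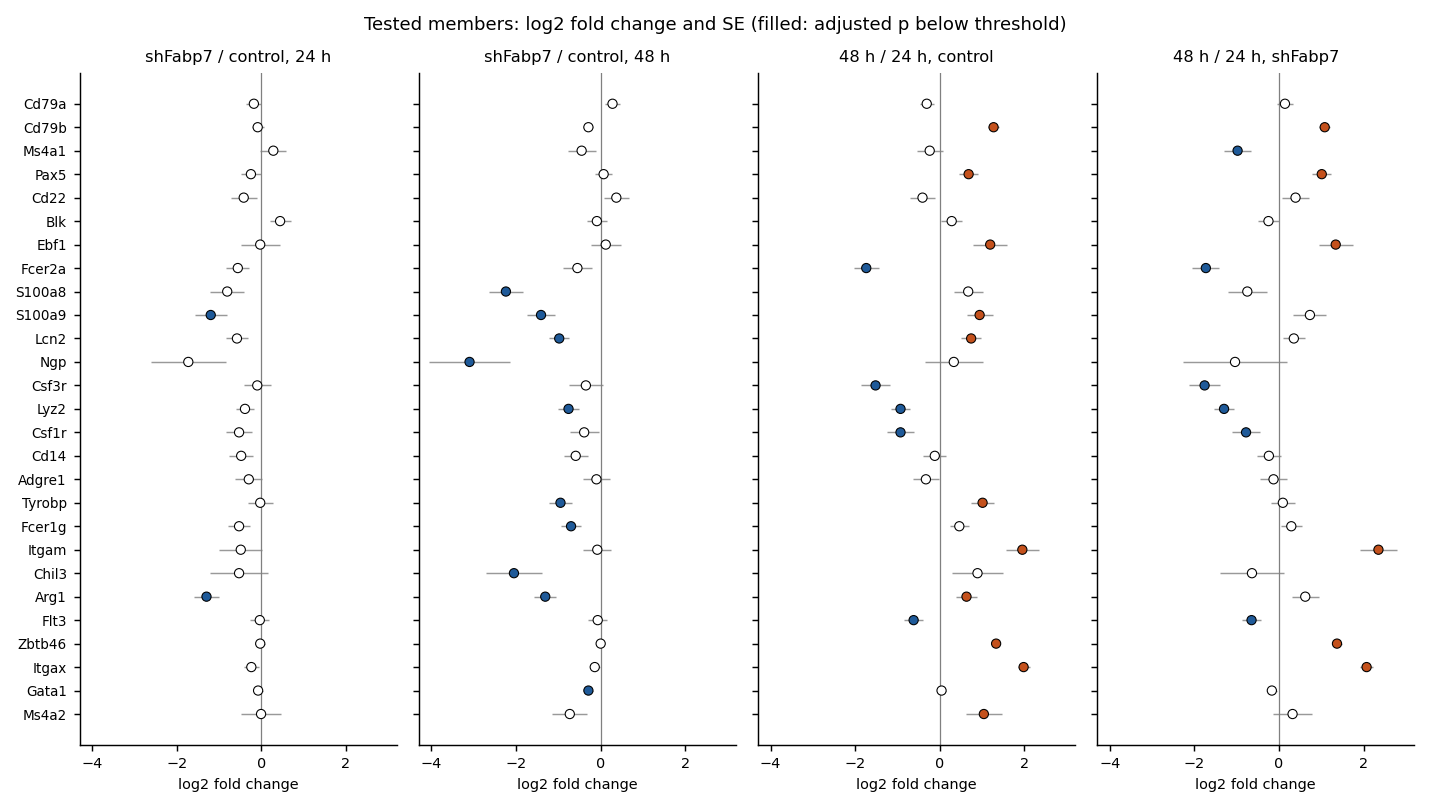
Log2 fold change with its SE for the 27 tested markers in 4 comparisons, shFabp7 against control partner at each time and 48 h against 24 h with each partner. Filled points pass an adjusted p of 0.05 (2, 10, 16 and 12 markers), in blue where lower and in orange where higher, and the filled points of the partner comparisons all lie below 0.

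Over time with the control partner, 11 of the 27 tested markers rose and 5 fell, where 67.7% of all genes tested changed, 35.8% rising and 32% falling. With the shFabp7 partner 6 rose and 6 fell, where 66.1% of all genes changed, 35.9% rising and 30.2% falling. The medians were 0.46 and 0.09, against 0.04 and 0.06 over all genes tested. Scaling by library totals alone would move the median of all genes to 0.23 and 0.21. The time comparisons share no library with each other, but each shares its groups with the partner comparisons. In the same direction with both partners were 11 markers, 68.8% of the 16 called with the control and 91.7% of the 12 called with the shFabp7 partner. Over all genes tested these shares were 84.9% and 87%. The 6 that rose were Cd79b, Pax5, Ebf1, Itgam, Zbtb46 and Itgax, and the 5 that fell were Fcer2a, Csf3r, Lyz2, Csf1r and Flt3.

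The B cell genes moved in different directions. Cd79b rose from 5.1, 4.47 and 5.01 CPM at 24 h to 11.3, 10.8 and 13 CPM at 48 h with the control partner, by 1.27 ± 0.12 on the log2 scale (adjusted p = 5.7e-11). With the shFabp7 partner it rose from 5.22, 3.86 and 4.54 to 10.1, 8.06 and 10.7 CPM (1.08 ± 0.13, adjusted p = 4.9e-09). Cd79a, which encodes the other chain of the same receptor unit, did not pass with either partner and was between 2.19 and 3.58 CPM in all 12 libraries. The ratio of Cd79b to Cd79a per kb, looked at after these values were seen, was 1.36 to 2.04 in the 6 libraries at 24 h. It was 4.46, 5.03 and 4.63 with the control partner and 3.73, 2.4 and 3.48 with the shFabp7 partner at 48 h, with no overlap between the times.

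Pax5 rose by 0.68 ± 0.22 with the control partner (adjusted p = 0.00583) and by 1.01 ± 0.22 with the shFabp7 partner (adjusted p = 1.7e-04), from 1.74 ± 0.497 to 2.79 ± 0.425 and from 1.46 ± 0.411 to 2.94 ± 0.3 CPM. Ebf1 rose by 1.19 and 1.34 from 0.423 and 0.41 CPM, and its call with the control partner was lost without control replicate 1 at 48 h (adjusted p = 0.0896). Fcer2a fell with both partners, by 1.74 ± 0.29 (adjusted p = 2.6e-06) and 1.73 ± 0.32 (adjusted p = 1.6e-05). All its libraries at 24 h were at or above 0.992 CPM and all at 48 h at or below 0.545 CPM. Ms4a1 fell with the shFabp7 partner by 0.98 ± 0.32 (adjusted p = 0.0084), a call lost without replicate 1 at 24 h or replicate 3 at 48 h (adjusted p up to 0.0663). It did not pass with the control partner, and whether the partners differ was the interaction above.

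Among dendritic cell genes, Itgax, the CD11c integrin chain, rose from 2.31, 2.42 and 2.73 CPM to 11.4, 9.6 and 8.46 CPM with the control partner (1.98 ± 0.14, adjusted p = 1.8e-14). With the shFabp7 partner it rose from 1.99, 2.05 and 2.28 to 9.67, 9.11 and 7.87 CPM (2.07 ± 0.15, adjusted p = 2.0e-14). Zbtb46 rose by 1.33 ± 0.10 (adjusted p = 2.2e-13) and 1.37 ± 0.11 (adjusted p = 2.0e-13), from 5.63 ± 0.476 to 14.2 ± 0.631 and from 5.52 ± 0.537 to 14.3 ± 0.944 CPM. Flt3, the growth factor receptor of dendritic cell precursors, moved the other way, from 1.97 ± 0.348 to 1.28 ± 0.0662 and from 1.93 ± 0.351 to 1.22 ± 0.079 CPM. Its log2 fold changes were -0.62 (adjusted p = 0.014) and -0.65 (adjusted p = 0.0113). The first was lost under library totals as scaling and without replicate 2 or 3 of the control at 24 h (adjusted p up to 0.085), and the second without shFabp7 replicate 2 at 24 h (adjusted p = 0.0633). The group means of Xcr1, Clec9a, Siglech and Cd209a were at most 0.118 CPM.

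**Figure D5:**
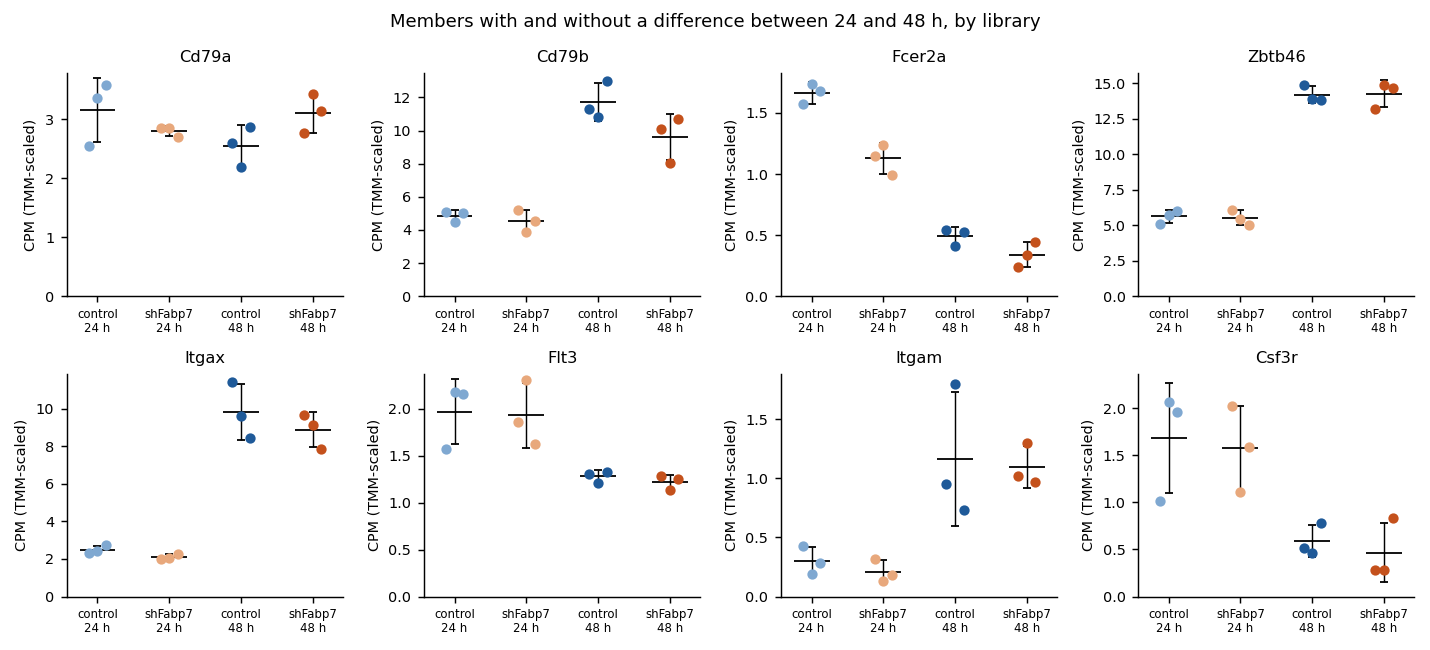
CPM of 8 B cell, dendritic cell and myeloid markers, with 1 point per library, a bar at the group mean and whiskers of 1 SD (n = 3). Cd79b, Zbtb46, Itgax and Itgam are higher at 48 h with both partners, Fcer2a, Flt3 and Csf3r are lower, and Cd79a stays between 2.19 and 3.58 CPM in all 12 libraries.

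The myeloid genes divided in the same way. Itgam rose from 0.43, 0.191 and 0.284 to 0.954, 1.8 and 0.73 CPM with the control partner (1.95 ± 0.39, adjusted p = 5.0e-05). With the shFabp7 partner it rose from 0.32, 0.134 and 0.18 to 1.02, 1.3 and 0.97 CPM (2.35 ± 0.43, adjusted p = 1.2e-05). Lyz2 fell over the same time by 0.93 ± 0.22 with the control partner (adjusted p = 3.7e-04) and 1.30 ± 0.24 with the shFabp7 partner (adjusted p = 1.9e-05). Csf3r fell by 1.52 ± 0.35 (adjusted p = 3.2e-04) and 1.76 ± 0.37 (adjusted p = 1.0e-04). Csf1r fell by 0.93 and 0.78, with the exon overlap with Hmgxb3 as stated, and the first call was lost without control replicate 2 at 24 h (adjusted p = 0.166). The second was lost under 7 alternatives, leaving out shFabp7 replicate 2 of either time or replicate 3 at 48 h among them (adjusted p up to 0.157).

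With the control partner, S100a9, Lcn2, Tyrobp, Arg1 and Ms4a2 also rose from 24 to 48 h, by 0.94 ± 0.31, 0.74 ± 0.23, 1.01 ± 0.27, 0.63 ± 0.25 and 1.04 ± 0.42. None of these 5 passed with the shFabp7 partner, and none had an interaction past the threshold. S100a9 lost its call without control replicate 1 at 48 h (adjusted p = 0.0851). Arg1 lost its call in DESeq2 and without control replicate 2 of either time (adjusted p up to 0.186). Ms4a2 lost its call in DESeq2, without control replicate 2 or 3 at 24 h and without control replicate 3 at 48 h (adjusted p up to 0.136). The calls of Lcn2 and Tyrobp held under every alternative run.

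Further genes of the same cell types were examined at 48 h, where 11.6% of all genes tested fell and 19.9% rose. Of the 9 tested neutrophil genes outside the 38, 1 fell with the shFabp7 partner and none rose. Their median log2 fold change was -0.38, and 8 of the 9 were below 0. Without overlap between the partner groups, 3 were lower and 0 higher, where 18.4% and 25.7% of all genes tested were. The gene that fell was Il1b, the interleukin-1 beta gene, which went from 7.51 to 5.78 CPM (log2 -0.38 ± 0.12, adjusted p = 0.0175). The summed level of these further neutrophil genes was 14.6 to 20 CPM in the control and 12.8 to 13.9 CPM in the shFabp7 libraries. Of 17 tested monocyte and macrophage genes, 2 fell and 1 rose, with a median of -0.05. Cybb, the catalytic chain of the phagocyte oxidase, went from 9.69 to 6.87 CPM (-0.50 ± 0.12, adjusted p = 0.00132) and Mpeg1, a pore-forming protein, from 4.79 to 3.43 CPM (-0.49 ± 0.16, adjusted p = 0.019). Hmox1, the heme-degrading enzyme, rose from 9.64 to 12.6 CPM (0.39 ± 0.11, adjusted p = 0.00561).

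Of 18 tested further B cell genes, 3 fell and 1 rose with the shFabp7 partner at 48 h, with the smallest adjusted p for Cd72, a B cell co-receptor, which went from 27.2 to 20.8 CPM (-0.39 ± 0.08, adjusted p = 4.1e-04). Of 16 tested further dendritic cell genes, 3 fell and 2 rose. This list includes Cd8a, which is also one of the T cell markers. The chemokine receptor gene Ccr9, which T cells also transcribe, went from 32.7 to 10.9 CPM (-1.59 ± 0.09, adjusted p = 6.7e-14). Of 8 tested mast cell and basophil genes, 2 fell and none rose, and Kit, the stem cell factor receptor, went from 3.14 to 1.91 CPM (-0.71 ± 0.19, adjusted p = 0.00317). These lists are short, and their counts are to be read beside the shares of 11.6% falling and 19.9% rising over all genes tested.

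NK cell genes bear on Tyrobp and Fcer1g, which NK cells transcribe. Of 11 tested NK cell genes, 3 rose with the shFabp7 partner at 48 h (Prf1, Il2rb and Cd160, all of which T cells also transcribe) and 1 fell, where 19.9% of all genes tested rose and 11.6% fell. The gene that fell, Klrb1c, the NK1.1 antigen, lies outside the naming rule and was picked after its values were seen. It went from 0.688 ± 0.211 to 0.242 ± 0.199 CPM (log2 -1.51 ± 0.46, adjusted p = 0.0106), and its groups overlapped. Other NK receptor genes differed little: Klrc1 was at 2.03 and 2.02, Klra4 at 0.217 and 0.203 and Klre1 at 0.556 and 0.483 CPM. Of the 11 tested, 8 were below 0 and 3 above, with a median of -0.10. Ncr1, the NKp46 receptor gene, was at 0.447 ± 0.25 and 0.258 ± 0.0384 CPM, and the list summed to 992 to 1119 and 1188 to 1243 CPM, most of it Il2rb. The part of NK cells in the Tyrobp and Fcer1g values was not tested.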

How the data were processed

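RNA-seq libraries of mouse spleen T cells co-cultured with Res_ctrl or Res_shFabp7 cells for 24 or 48 h were analysed, 3 per group and 12 in all. The deposited values were raw read counts per gene symbol, not normalized. CASAVA 1.8.2, TopHat2 2.0.13 and HTSeq 0.6.1p1 with build GRCm39 are named in the submitters' processing notes, and the sources used here do not state their order, settings, strand mode or annotation. Library totals were 32.0 to 40.6 M counts.

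Counts were filtered with filterByExpr by group (minimum count 10, minimum total 15), scaled by TMM and tested with edgeR 4.0.16 (quasi-likelihood, robust, all 12 libraries in 1 fit) in R 4.3.3. P-values were adjusted by Benjamini-Hochberg over 16945 genes. A positive log2 fold change means higher with the shFabp7 partner or at 48 h. Values are ± SD over 3 libraries, fold changes ± SE. The alternatives were DESeq2 1.42.0, RLE, upper-quartile and library-total scaling, no filter, a strict filter (1 CPM in 3 libraries and 100 counts in all), the compared groups only, a replicate block, and each library left out. The test was checked on simulated data for the partner comparison at 24 h only, with changes planted in genes averaging 1 CPM or more. That check does not cover markers below this level.

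Exon lengths and overlaps came from a GRCm38 annotation and promoters from RefSeq. All 38 markers were accounted for, and those averaging 1 CPM or more in any group, or past the threshold, were named with values. Of each other list, the 3 smallest adjusted p past the threshold could be named. The 38 markers and the other lists (181 entries in 14 lists, 180 found, 4 under a synonym) were chosen with earlier results of these data known. Cd8a is entered in both the dendritic cell and the T cell list. Same-numbered libraries of different groups were hardly correlated in their deviations from the group means (-0.067 to 0.0363). This cannot exclude a small effect shared by libraries of the same number.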

Additional observations from a re-analysis of the deposited data

How the results depend on the processing

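Of the 40 calls of markers in the 5 comparisons, 15 were lost in at least 1 alternative. The other 25 held under every alternative that gave the marker an adjusted p. An alternative without an adjusted p for a marker was not counted as a loss, so 25 is an upper limit. DESeq2 gave none to 22 of the 27 tested markers for the partner at 24 h, and the strict filter dropped some markers. No called marker changed direction. With each library left out in turn, the number of markers called ranged from 1 to 3 (2 with all libraries) for the partner at 24 h, from 5 to 11 (10) at 48 h, from 14 to 18 (16) for time with the control and from 10 to 13 (12) with the shFabp7 partner, and stayed at 0 for the interaction. Over all genes the calls ranged from 949 (without control replicate 1) to 2525 at 24 h (1842 with all libraries) and from 319 (without shFabp7 replicate 2 at 24 h) to 1680 for the interaction (949). DESeq2 called 0 markers at 24 h. The share of calls over all genes that were higher depended on the scaling. At 24 h it was 57.2%, against 33.2% (library totals), 42.1% (upper-quartile), 71.9% (RLE) and 75% (DESeq2). At 48 h it was 63.2%, against 40.5% and 39.9% under the first 2 of these. For the interaction it was 79% against 61.9% with library totals and 48.9% with upper-quartile scaling, and for time 52.8% and 54.3% against 67.2% and 66.4% with library totals.

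The replicate block called 2, 10, 0, 16 and 11 markers in the order partner at 24 h, partner at 48 h, interaction, time with the control and time with the shFabp7 partner. It ended the calls of Gata1 at 48 h (adjusted p = 0.0635) and of Csf1r over time with shFabp7 (adjusted p = 0.0528), and added Cd79b at 48 h (adjusted p = 0.0342). The labels do not say whether equal numbers mark paired libraries, so the block is only an alternative and no measure of the size of an effect.

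Without the marker with the highest mean over all 12 libraries (Cd79b, Zbtb46, Lcn2 and Lyz2), the B cell sums were 10.3, 9.47, 10.1 and 10.5 CPM (control 24 h, shFabp7 24 h, control 48 h, shFabp7 48 h), so most of the time difference in this sum came from Cd79b. The dendritic cell sums were 4.72, 4.18, 11.2 and 10.2 CPM. Of these, Itgax made up 2.49, 2.11, 9.81 and 8.88 CPM, so the rise over time that remained came from Itgax. The neutrophil sums were 4.18, 2.9, 4.74 and 1.74 CPM. The monocyte and macrophage sums were 10.3, 7.11, 13.2 and 7.83 CPM. With library totals the B cell sum was 14.5 CPM in control 24 h and 23.8 in control 48 h, the dendritic cell sum 9.02 in shFabp7 24 h and 27.8 in control 48 h, and the monocyte and macrophage sum 9.08 in shFabp7 24 h. Depth limits the 11 untested markers and Ngp, whose libraries held at most 22 counts.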

Other observations

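Of all genes tested, 35.8% rose and 32% fell from 24 to 48 h with the control partner, and 35.9% rose and 30.2% fell with the shFabp7 partner. The counts of other lists are small and are given beside these shares as a description. Of the 6 tested platelet genes, 3 rose from 24 to 48 h with the control partner and none fell, and 5 rose with the shFabp7 partner. Itga2b, a platelet integrin chain, rose by 0.57 ± 0.11 and 0.36 ± 0.12 on the log2 scale (adjusted p = 4.6e-05 and 0.00874, edgeR), from 8.58 to 12.7 and from 7.58 to 9.72 CPM, and the platelet list summed to 9.97 to 21.9 CPM over the 12 libraries. Of the 8 tested mast cell and basophil genes, 4 rose with each partner, and 2 fell with the shFabp7 partner. Fcer1a, the alpha chain of the IgE receptor whose beta chain is Ms4a2, rose by 2.99 ± 0.37 and 3.08 ± 0.39, from 0.185 ± 0.0696 to 1.47 ± 0.248 CPM with the control partner (adjusted p = 1.1e-08 and 1.9e-08). Gata2, a factor of mast cells and basophils, rose by 0.69 ± 0.16 and 0.75 ± 0.17.

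Of the 5 tested red cell genes outside the 38 markers, 1 rose and 1 fell with the control partner, and 2 rose and 1 fell with the shFabp7 partner. Epor, the erythropoietin receptor gene, rose by 2.75 ± 0.24 and 2.93 ± 0.26. Of the 16 tested further dendritic cell genes, Batf3, a factor of cross-presenting dendritic cells and of activated T cells, rose by 2.22 ± 0.16 and 2.54 ± 0.16. Which cells its transcripts came from was not tested. Of the 18 tested further B cell genes, 10 rose and 2 fell with the control partner and 13 rose and 3 fell with the shFabp7 partner. Cxcr5, a follicular homing receptor of B cells and of some T cells, rose by 1.62 ± 0.08 and 1.52 ± 0.08.

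For plasma cells 2 of 6 tested genes rose with the shFabp7 partner at 48 h, both (Prdm1 and Irf4) also transcribed by activated T cells, where 19.9% of all genes tested rose and 11.6% fell. Of the tested genes of gamma delta T cells 2 of 8 fell in this comparison, of epithelial cells 1 of 5 and of endothelial cells 1 of 3. Of fibroblast genes 3 of 5 rose over time with the control partner and 5 of 5 with the shFabp7 partner, among them Col1a1 (2.46 ± 0.30 and 1.65 ± 0.29 on the log2 scale), and the list summed to 3.43 to 14.1 CPM.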
